A study of Oryza sativa with 3 samples.

Results

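The miRNA families miR160, miR167, miR390 and miR393, which act on the auxin response, were followed across 3 genotypes of japonica rice (Oryza sativa), all sampled as young panicles. The members are the rows of the deposited miRNA table that carry exactly one of these family numbers, and they were chosen by name. They make up 19 of the 367 rows, with 7 rows for miR160, 7 for miR167, 2 for miR390 and 3 for miR393. Of the 19 rows, 15 had a read in some library and 4 had none.

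The groups were wild type, the ld-1 mutant and the ld-2 mutant of the lodiculeless spikelet line, each with 1 untreated library from young panicles. The series title names the lesion as a mutation of miR172b and connects it with closed flowering (cleistogamy). Small RNA of 20 to 30 nt was sequenced and counted per mature miRNA sequence. The sources used here do not give the panicle stage, the number of plants pooled or the nature of each ld allele. Some plants were raised under greenhouse light and others in an open field plot, and the sources do not say which library came from where.

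Auxin is perceived by TIR1/AFB receptors, which remove Aux/IAA repressors and so release the auxin response factors (ARFs), the transcription factors that switch auxin genes on or off. In plants, miR393 cuts transcripts of the TIR1/AFB receptors. miR160 cuts transcripts of repressor-type ARFs, and miR167 cuts those of activator-type ARFs, which in Arabidopsis are needed for anthers and ovules to mature. miR390 works one step removed: with AGO7 it starts the production of trans-acting siRNAs from TAS3 transcripts, and these siRNAs silence a further group of ARFs that shape leaf and floral organ polarity.

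The libraries held 116818, 140807 and 66642 miRNA reads, for wild type, ld-1 and ld-2 in that order, which holds for each series of 3 values that follows. After scaling by the trimmed mean of M values, a single read was worth 8.52, 8.27 and 12.9 RPM (reads scaled to library size), so ld-2 was measured least precisely. As a check of the labels, the miR172b sequence had 298, 2 and 1 reads, which sets wild type apart from the mutants but cannot tell ld-1 from ld-2. miR2118, a family that marks the reproductive panicle through its role in anther phased siRNAs, was present in each library with 1292, 1208 and 2880 reads, so it was higher in ld-2 (log2 ratio to wild type 1.76, 95% interval 1.66 to 1.85). The part of panicle stage in the ld-2 values given here was not tested. With 1 library per genotype no difference could be tested against the spread between plants, and the intervals cover counting error only.

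The sequences that carried most of the reads are shown first, because members of a family differ by a single base or lie on opposite arms of one hairpin. Each is written 5′ to 3′ in DNA letters as deposited, with the seed (bases 2 to 8) in capitals. Those of miR160 and miR167 are
miR160e: tGCCTGGCtccctgtatgccg
miR160a//miR160b//miR160c//miR160d: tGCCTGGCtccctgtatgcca
miR160f: tGCCTGGCtccctgaatgcca
miR167a//miR167b//miR167c: tGAAGCTGccagcatgatcta
miR167d to miR167j: tGAAGCTGccagcatgatctg
and the sequences of miR390 and miR393, with the opposite arm of each and of miR160c, are
miR390, 21 nt: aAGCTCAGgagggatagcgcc
miR390, 20 nt: cGCTATCTatcctgagctcc
miR393a: tCCAAAGGgatcgcattgatc
miR393b: tCAGTGCAatccctttggaat
miR160c: gCGTGCACggagccaagcata

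The 3 leading miR160 sequences shared the seed GCCTGGC, and no row of another family had it. Counted from position 1 at the 5′ end, miR160e differs from the miR160a to miR160d sequence by A21G and miR160f by T15A. Both leading miR167 sequences shared the seed GAAGCTG, which outside the family was found in 1 row, miR5150, and they differ by A21G. The rule that divided reads between sequences a single base apart is unknown here, so the split between them is less certain than the family sum.

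Rows of a family that are not near copies of the target-pairing sequence were set against it for base pairing, G:T pairs included and gaps left out. The 20-nt miR390 sequence paired with the 21-nt one at 17 of 19 positions, where rows of other families paired with it at no more than 14. The miR393b sequence shown paired with miR393a at 18 of 19 positions, where rows of other families reached no more than 15. It is therefore described here as the opposite arm, and miR393a as the arm known to pair with receptor transcripts. The miR160c sequence shown paired with the miR160a to miR160d sequence at 17 of 19 positions, against no more than 15 for rows of other families.

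Counting reads over the families, miR167 was by far the most abundant of them. It had 10872, 13560 and 5334 reads, or 9.31%, 9.63% and 8.004% of all miRNA reads (exact 95% binomial intervals 9.14% to 9.47%, 9.48% to 9.79% and 7.80% to 8.21%). It ranked 3 among the families of each library. miR160 had 1275, 1232 and 604 reads and miR390 had 1209, 1340 and 600, each near 1% of the reads. miR393 had 73, 54 and 66 reads, under 0.1% of each library, and ranked 33 of 136 families with reads in wild type, 36 of 136 in ld-1 and 29 of 141 in ld-2. Together the 4 families took 11.5%, 11.5% and 9.91% of the reads.

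The order miR167, then miR160 and miR390, then miR393 was found in each library. miR160 and miR390 did not differ beyond counting error in wild type, where miR160 had 1.05 reads per miR390 read (0.974 to 1.14), or in ld-2, with 1.01 (0.898 to 1.13). In ld-1 miR390 was the higher of the pair, with 0.919 miR160 reads per miR390 read (0.850 to 0.994).

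Of the 19 rows, 9 had at least 30 reads over the libraries and were retained for the ratios, and they held 99.9% of the members' reads. A row was listed as higher or lower in a comparison when its ratio was at least 2-fold and its exact 95% interval excluded a ratio of 1. In ld-1 against wild type 0 of 9 retained members were listed, beside 9.17% of the 109 retained rows of the table, 6.42% higher and 2.75% lower. In ld-2 against wild type 0 of 9 were listed, beside 28.4% of all retained rows, 20.2% higher and 8.26% lower. In ld-2 against ld-1 1 of 9 was listed, the opposite-arm miR393b sequence, which was higher, beside 25.7% of all retained rows, 19.3% higher and 6.42% lower. Every retained miR2118 row was listed as higher in both comparisons with ld-2, so those shares count a single family many times.

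**Figure D1:**
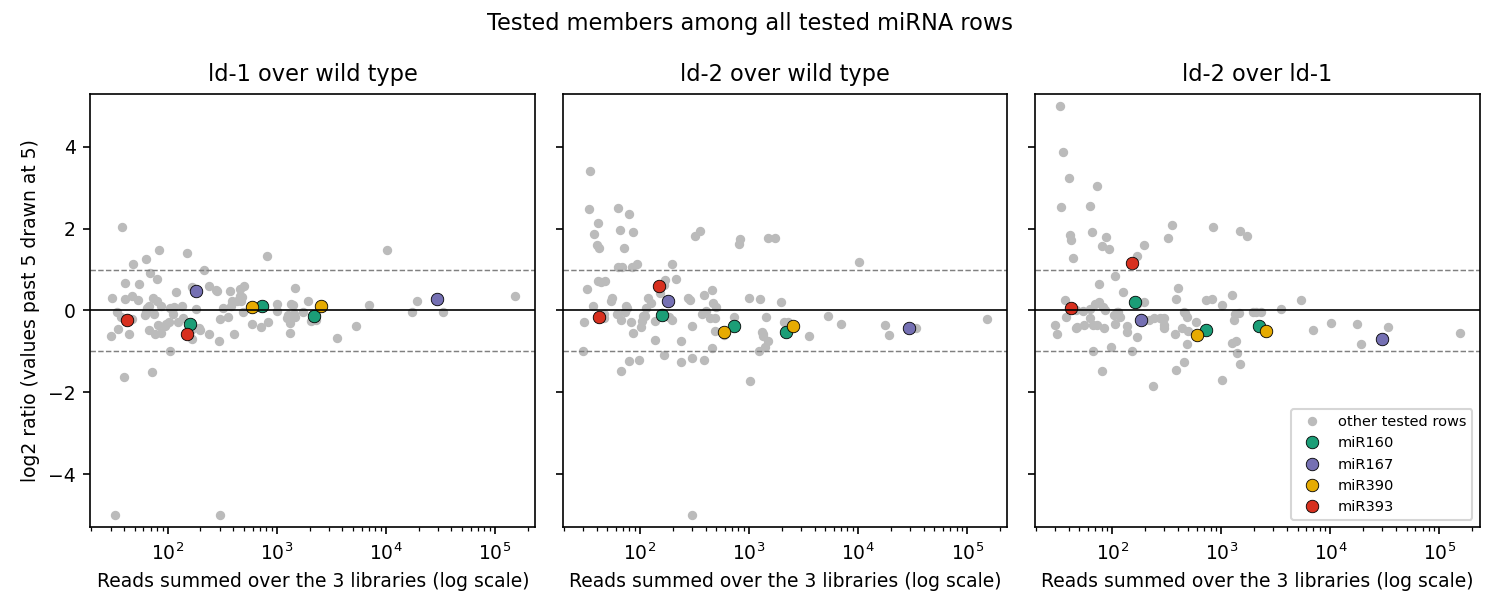
Log2 ratio of each retained miRNA row against its reads summed over the 3 libraries (log scale), in the 3 comparisons, with the members coloured by family and the dashed lines at 2-fold. Of the members, 1 point passes a dashed line, miR393b in ld-2 over ld-1 at 1.17.

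As a group the retained members had a median above that of the table in ld-1 and below it in ld-2. Against wild type their median log2 ratio was 0.076 for ld-1, where that of all retained rows was -0.028, and -0.37 for ld-2, where it was -0.081. Between the mutants the medians were -0.38 and -0.11. In ld-2 over wild type 7 of the 9 members were below 0, beside 59 of all 109 retained rows. The member count was 5 of 9 when reads were scaled to all miRNA reads. In ld-1 over wild type 5 of 9 members were above 0, near the share of all retained rows, 53 of 109. Under that scaling 2 of 9 members were above 0. Scaling to all miRNA reads moved the median of the retained rows by -0.23 (ld-1 over wild type), 0.21 (ld-2 over wild type) and 0.43 (ld-2 over ld-1), so family values are also given relative to that median, which no scaling alters.

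**Figure D2:**
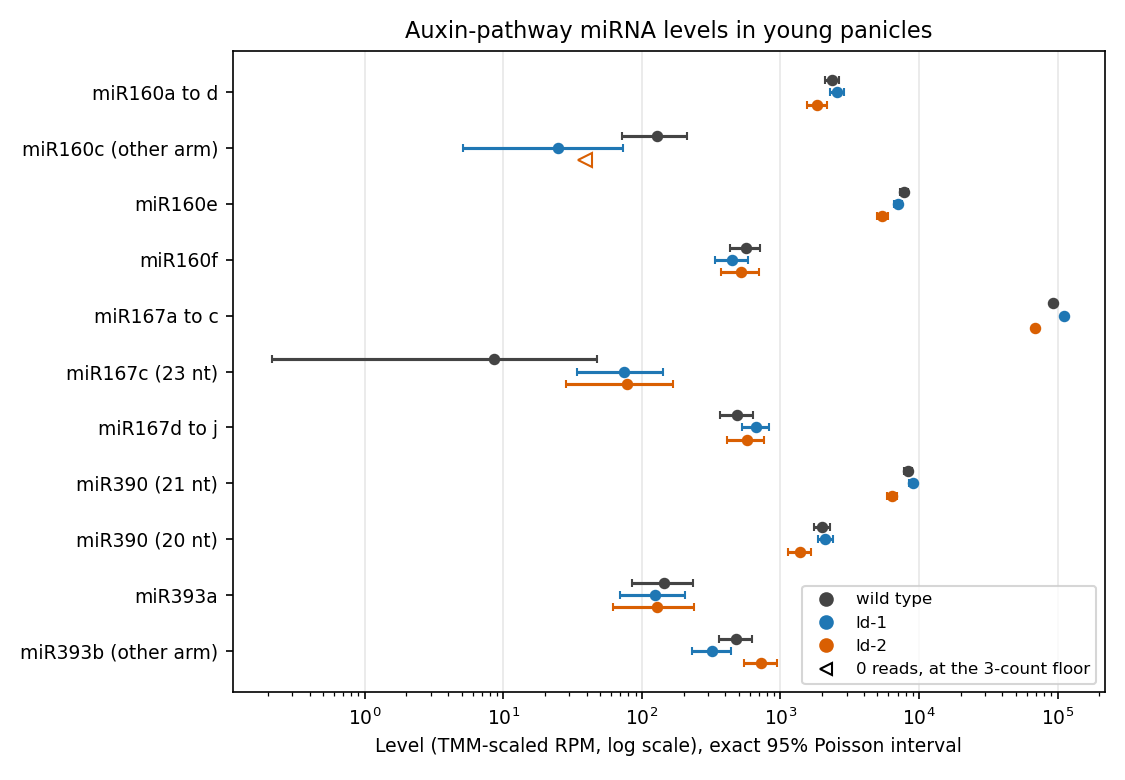
Level of each member row with at least 10 reads, in scaled RPM on a log axis, with 1 point per genotype (1 library each) and exact 95% Poisson intervals for counting error. The sequence of miR167a to miR167c stands above the others in each library, and miR160c has 0 reads in ld-2, drawn at the floor of 3 counts.

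Among the ARF-targeting families, miR167 showed the most precisely measured difference between the mutants. The sequence of miR167a to miR167c had 10811, 13467 and 5280 reads, which is 92149, 111432 and 68295 scaled RPM. ld-1 was the highest library and ld-2 the lowest, and the 3 intervals for counting error did not overlap. Against wild type, ld-1 had a log2 ratio of 0.27 (95% interval 0.24 to 0.31). For ld-2 it was -0.43 (-0.48 to -0.38), and that of ld-2 to ld-1 was -0.71 (-0.75 to -0.66), or 1.63-fold lower. No value reached 2-fold. Under scaling to all miRNA reads the signs held, with 0.047, -0.22 and -0.27.

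Relative to the median of the retained rows, the miR167 sum stood at 0.30 for ld-1 and -0.34 for ld-2 over wild type, and at -0.60 for ld-2 over ld-1. This single sequence took 99.4%, 99.3% and 98.99% of the miR167 reads.

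The second miR167 sequence, of miR167d to miR167j, carries 7 names but had only 57, 81 and 44 reads, or 486, 670 and 569 scaled RPM. Against wild type, ld-1 was at a log2 ratio of 0.46 (-0.042 to 0.98) and ld-2 at 0.23 (-0.37 to 0.82), both within counting error. As a share of the family it was 0.524% in wild type (0.397% to 0.679%), against 0.597% (0.475% to 0.742%) for ld-1 and 0.825% (0.600% to 1.11%) for ld-2. The odds of a miR167 read being this sequence were higher in ld-2 than in wild type by 0.66 on the log2 scale (0.055 to 1.25), a difference that needs no scaling between libraries. For ld-2 over ld-1 the odds value was 0.47 (-0.097 to 1.02), an interval that included 0. The intervals were not adjusted for their number, and the split between sequences a single base apart remains less certain than the family sum.

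The other miR167 rows were rare. A 23-nt sequence under miR167c had 1, 9 and 6 reads, and fell under the minimum of 30 reads. The log2 ratio over wild type was 3.13 for ld-1 (0.28 to 8.58) and 3.19 for ld-2 (0.14 to 8.71). Both values are barely constrained. The lower read minimum for naming a row was reached only through the mutants, so higher values in the mutants were favoured by that choice. Of the remaining 4 rows, miR167e//miR167i and miR167h had 3 and 7 reads in all, and 2 rows had none.

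For miR160, the family against repressor-type ARFs, miR160e was the dominant sequence, with 916, 857 and 421 reads, or 7808, 7091 and 5445 scaled RPM. Its intervals overlapped between wild type and ld-1, and ld-2 lay below both. Against wild type, ld-1 was at -0.14 on the log2 scale (-0.27 to -0.0029) and ld-2 at -0.52 (-0.69 to -0.35). The ratio of ld-2 to ld-1 was -0.38 (-0.55 to -0.21), and it turned to 0.054 with scaling to all miRNA reads.

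The sequence shared by miR160a to miR160d, from 4 names, had 278, 311 and 142 reads, or 2370, 2573 and 1837 scaled RPM, so 4 names gave fewer reads than the sequence listed for miR160e alone. For ld-1 its log2 ratio was 0.12 (-0.12 to 0.36), which was -0.11 under scaling to all miRNA reads. For ld-2 it was -0.37 (-0.67 to -0.071). miR160f had 66, 54 and 40 reads, with ld-1 at a log2 ratio of -0.33 (-0.88 to 0.21) and ld-2 at -0.12 (-0.73 to 0.47). Neither value of miR160f lay beyond counting error.

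Within miR160 the make-up was close in the 3 libraries. miR160e took 71.8% (69.3% to 74.3%), 69.6% (66.9% to 72.1%) and 69.7% (65.9% to 73.3%) of the reads. The miR160a to miR160d sequence took 21.8%, 25.2% and 23.5%, and its odds were higher in ld-1 than in wild type by 0.28 on the log2 scale (0.0032 to 0.55), at the edge of counting error. Summed, miR160 had a log2 ratio over wild type of -0.092 for ld-1 (-0.21 to 0.022) and -0.48 for ld-2 (-0.62 to -0.34), which is -0.065 and -0.40 relative to the median of the retained rows.

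The miR160c sequence of the opposite arm stood further from wild type than the leading miR160 sequences, though with few reads. It had 15, 3 and 0 reads, and was under the read minimum. The 10 reads needed for naming were reached only through wild type, so lower values in the mutants were favoured by that choice. For ld-1 over wild type its log2 ratio was -2.36 (-4.79 to -0.54). In ld-2 a count of 0 was set at the floor of 3 counts, or 38.8 scaled RPM, which is 3.29-fold below the 128 scaled RPM of wild type. That figure is not a lower bound. The exact 95% interval of the log2 ratio, which takes in the error of each count, ended at -1.24, a smaller difference. The other opposite-arm rows of miR160 did not share the pattern: that of miR160f had 0, 6 and 1 reads, that of miR160a//miR160b had 0, 1 and 0, and that of miR160e had none. Together the opposite-arm rows of miR160 had 15, 10 and 1 reads.

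**Figure D3:**
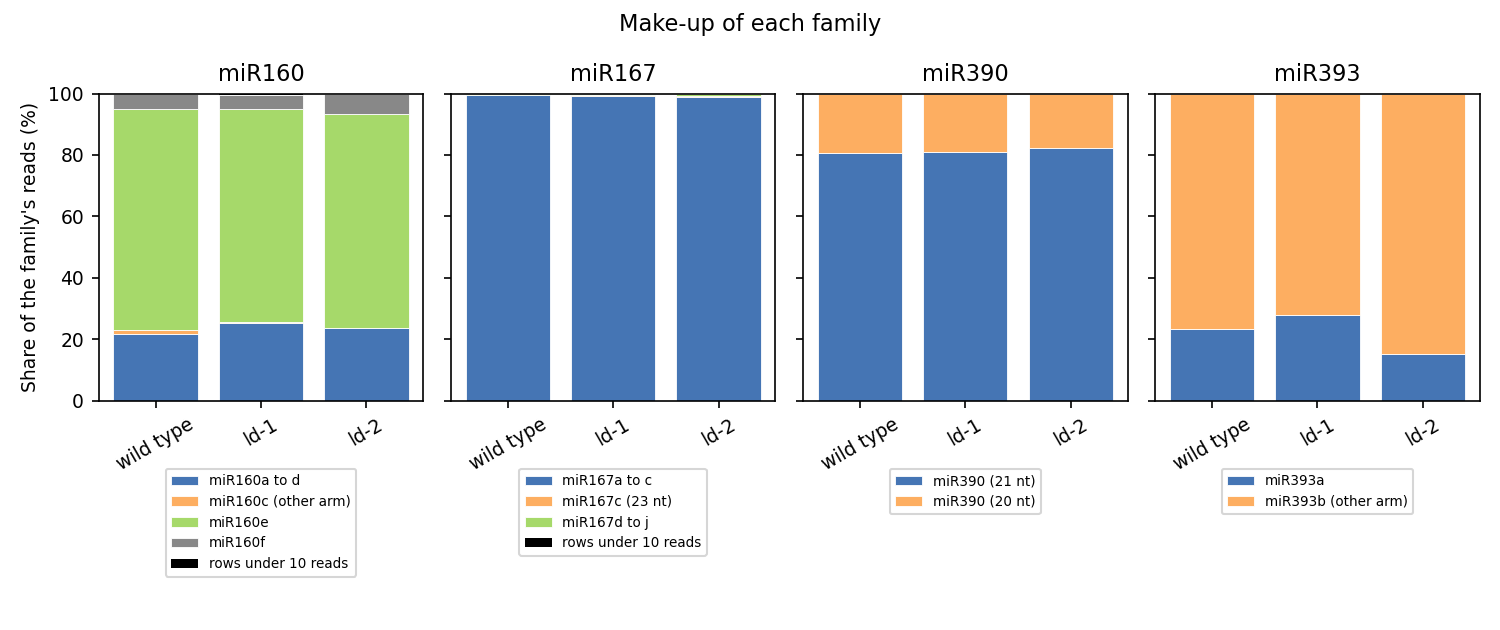
Share of each family's reads (%) taken by its rows in each of the 3 libraries, stacked to 100%. The target-pairing sequences fill most of miR160, miR167 and miR390, whereas the opposite-arm miR393b sequence takes 72.2% to 84.8% of miR393.

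miR390, the trigger of TAS3 siRNAs, was present as both arms of its hairpin. The 21-nt sequence, which begins with the A that AGO7 favours in Arabidopsis, had 975, 1086 and 493 reads, or 8311, 8986 and 6377 scaled RPM. Its intervals overlapped between wild type and ld-1, and ld-2 lay below both. For ld-1 the log2 ratio to wild type was 0.11 (-0.013 to 0.24), a sign that reversed to -0.11 with scaling to all miRNA reads. For ld-2 it was -0.38 (-0.54 to -0.22).

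The 20-nt opposite arm had 234, 254 and 107 reads, or 1995, 2102 and 1384 scaled RPM. For ld-1 its log2 ratio was 0.076 (-0.19 to 0.34), or -0.15 with scaling to all miRNA reads, and for ld-2 it was -0.53 (-0.87 to -0.19). The proportion of the arms differed by less than counting error: the 20-nt sequence took 19.4% (17.2% to 21.7%), 19.0% (16.9% to 21.2%) and 17.8% (14.9% to 21.1%) of the miR390 reads. The log2 odds ratio of the 20-nt sequence over wild type was -0.037 for ld-1 (-0.33 to 0.26) and -0.15 for ld-2 (-0.53 to 0.23), so a shift of the odds beyond 0.53 on the log2 scale in either mutant lay outside these intervals. This share exceeded that of the opposite-arm rows in miR160, which was 1.18% in wild type (0.660% to 1.93%). Summed, miR390 stood at 0.13 (ld-1) and -0.33 (ld-2) relative to the median of the retained rows.

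miR393, the family against the auxin receptors, was the rarest of the 4 and the one whose reads came mostly from the opposite arm. The miR393a sequence had 17, 15 and 10 reads, or 145, 124 and 129 scaled RPM. These levels lay within counting error of each other, with log2 ratios over wild type of -0.22 for ld-1 (-1.33 to 0.87) and -0.16 for ld-2 (-1.45 to 1.05). The intervals of the receptor-targeting arm held a 2-fold lower level in each mutant and a 2-fold higher level in ld-2. A 22-nt form of the same sequence, listed under miR393b, had 0 reads in each library.

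The opposite-arm miR393b sequence had 56, 39 and 56 reads, or 477, 323 and 724 scaled RPM. ld-1 was the lowest library and ld-2 the highest, and the intervals of those 2 did not overlap, at 229 to 441 and 547 to 941 scaled RPM. Against wild type, ld-1 stood at a log2 ratio of -0.56 (-1.19 to 0.051) and ld-2 at 0.60 (0.041 to 1.16), so both missed 2-fold. The ratio of ld-2 to ld-1 was 1.17 (0.55 to 1.79), or 2.24-fold higher. It stayed listed under each of the scalings and the wider interval tried, with values from 1.13 to 1.60 over the scalings. These settings reuse the same 56 and 39 reads. Only DESeq2 size factors moved this comparison down, by a shift of -0.041, so the scalings were a weak check. The other read minimums, of none and 100 reads, could not unlist this row of 151 reads, nor could the lower threshold of 1.5-fold. The settings with added reads were not used for listing and are not in that range. Of the miR393 reads the opposite-arm sequence took 76.7% (65.4% to 85.8%), 72.2% (58.4% to 83.5%) and 84.8% (73.9% to 92.5%). The arm shares did not differ beyond counting error between the libraries. Summed over both arms, miR393 was at -0.48 (-1.01 to 0.050) for ld-1 and 0.46 (-0.046 to 0.96) for ld-2 over wild type. For ld-2 over ld-1 the sum was at 0.93 (0.39 to 1.48). Relative to the median of the retained rows these sums were -0.45, 0.54 and 1.04.

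**Figure D4:**
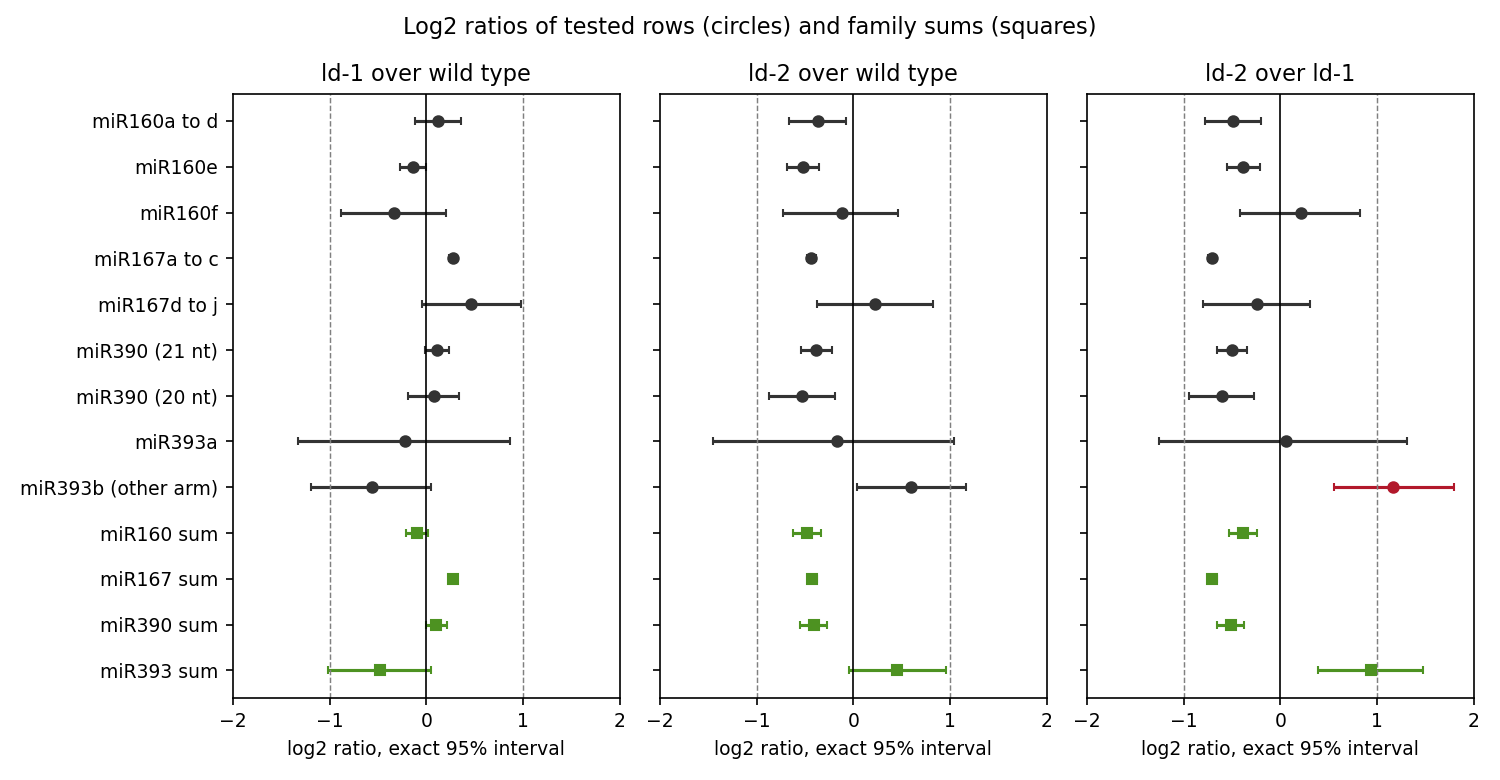
Log2 ratios of the retained rows (circles) and family sums (squares) in the 3 comparisons, with exact 95% intervals for counting error and dashed lines at 2-fold. The sums of miR160, miR167 and miR390 lie between -0.48 and -0.41 in ld-2 over wild type, and miR393b, in red, is the listed row in ld-2 over ld-1.

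Ratios of one family to another within a library need no scaling. In the comparisons with ld-2, those with miR393, a family of 54 to 73 reads a library, differed most. There were 10872 reads of miR167, 1275 of miR160 and 1209 of miR390 beside 73 of miR393 in wild type, that is 149 miR167 reads per miR393 read (118 to 190). For ld-1 the number was 251 (192 to 334), and for ld-2 it was 80.8 (63.4 to 105). From ld-1 to ld-2 miR167 thus went down 3.11-fold against miR393, a log2 difference of -1.64 (-2.18 to -1.09).

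The same comparison gave -1.32 for miR160 over miR393 (-1.88 to -0.76) and -1.45 for miR390 over miR393 (-2.01 to -0.89). From wild type to ld-2 the values were -0.93 for miR160 (-1.45 to -0.41), -0.88 for miR167 (-1.38 to -0.38) and -0.87 for miR390 (-1.39 to -0.34). With target-pairing arms alone, where miR393 rests on the 42 reads of miR393a, the 6 intervals all included 0, and the ld-2 over ld-1 value of miR167 over miR393 became -0.76 (-2.01 to 0.55). With all rows, from wild type to ld-1 miR160 over miR393 was at 0.39 (-0.16 to 0.93), an interval that included 0. There miR167 over miR393 was at 0.75 (0.22 to 1.29) and miR390 over miR393 at 0.58 (0.042 to 1.13).

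Among the ARF-side families the ratios moved by smaller amounts. In ld-2 against wild type miR160 over miR167 was at -0.051 (-0.20 to 0.098), miR160 over miR390 at -0.067 (-0.27 to 0.14) and miR167 over miR390 at -0.017 (-0.17 to 0.13). In ld-1 against wild type miR160 was lower relative to miR167 by a log2 value of -0.37 (-0.49 to -0.25), or 1.29-fold, miR160 over miR390 was at -0.20 (-0.36 to -0.036), and miR167 was higher relative to miR390 by 0.17 (0.051 to 0.29). In ld-2 against ld-1 miR160 over miR167 was at 0.32 (0.17 to 0.47), miR167 over miR390 at -0.19 (-0.33 to -0.038) and miR160 over miR390 at 0.13 (-0.070 to 0.33). Over the 6 family pairs and 3 comparisons, 13 of 18 intervals excluded 0, without adjustment for their number. These ratios are built from the same family sums and so are not independent. Pairs of other families were not compared, so the count has no background to be read against.

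The families miR166 and miR164 act beside them in organ patterning. miR166, which restricts the HD-ZIP III factors of the upper organ side opposite to the TAS3 siRNAs, had 24232, 24884 and 12034 reads, with log2 ratios over wild type of -0.0045 for ld-1 (-0.030 to 0.021) and -0.41 for ld-2 (-0.44 to -0.38). miR164, which targets NAC factors of organ boundaries, had 594, 526 and 285 reads, at -0.22 for ld-1 (-0.39 to -0.046) and -0.46 for ld-2 (-0.67 to -0.25). The ld-2 values of miR160, miR167 and miR390, from -0.48 to -0.41, lay beside those of miR166 and miR164, so similar values were found outside the ARF-side families.

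By distance between pairs of log2 ratios to wild type, over 3 libraries and 64 candidate rows of at least 100 reads, the nearest row to miR160 was the sequence listed first under miR166a and shared with miR166b, miR166c, miR166d, miR166f and miR166j (distance 0.07). The nearest to miR167 was miR166a//miR166e (0.09), and the nearest to miR390 was miR166k//miR166l (0.07). The nearest to miR393 was miR166e, at the larger distance of 0.28, with 63, 40 and 64 reads.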

How the data were processed

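The authors deposited unscaled read counts, per the file headers, for each mature miRNA sequence in each of the 3 libraries. The aligner, counting rules and miRNA annotation were not given in the sources used here. Members and lists were chosen with earlier results of these data known. Counts were scaled by TMM over all rows (edgeR 4.0.16, R 4.3.3), with factors of 1.00, 0.858 and 1.16. Rows with at least 30 summed reads were retained, 109 of 367. Ratios have exact 95% conditional binomial (Clopper-Pearson) intervals, levels exact Poisson intervals and shares exact binomial intervals, computed in Python 3.11.15 with scipy 1.17.1. Ratios of shares and of families are odds ratios with exact conditional intervals. Intervals and floors cover counting error only. With 1 library per genotype, no p-values were computed. The intervals and listing rule were tried on simulated counts with known ratios, which held counting error only and no spread between plants. That trial therefore cannot show how they perform across plants. A sequence within 3 edits of the known target-pairing sequence of its family was put on that arm. Every member row with at least 10 reads is named; rows named from under 10 reads were chosen after their values were seen. Alternatives were RPM of all miRNA reads, size factors from DESeq2 1.42.0, totals that leave out the 5 most abundant rows, TMM without miR2118, other minimums and thresholds, a 99% interval, and 0.5 or 5 added reads. TMM over rows of at least 30 reads, and sums over target-pairing arms, were added after seeing the data.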

Additional observations from a re-analysis of the deposited data

Results flagged for a closer look

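The miR167 family stood on opposite sides of wild type in the mutants: its sum was at 0.28 in ld-1 and -0.43 in ld-2, 2 comparisons that share the wild type library, and at -0.70 between ld-2 and ld-1. Its dominant sequence, of miR167a to miR167c, gave -0.71 between the mutants. With 1 library on each side, neither difference was tested.

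The opposite-arm miR393b sequence was at 1.17 in ld-2 over ld-1, from 56 and 39 reads, past the 2-fold limit with 1 library on each side, and this difference was likewise not tested.

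The 23-nt miR167c row, left out of the comparisons by the read minimum, had log2 ratios over wild type of 3.13 in ld-1 and 3.19 in ld-2. They came from 9 and 6 reads against the same 1 wild type read, which is under the floor of 3 counts. The row was named through its mutant reads and flagged for these high ratios. The ratios are therefore no separate evidence of a higher level in the mutants.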

How the results depend on the processing

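No paired analysis was possible because each genotype had 1 library, and no library could be left out for the same reason. Scaling to all miRNA reads moved the sums by more than the other scalings did. In ld-1 over wild type it gave -0.32 for miR160, 0.049 for miR167 and -0.12 for miR390. In ld-2 over wild type it gave -0.27, -0.22 and -0.20, and in ld-2 over ld-1 0.051, -0.27 and -0.080, so the signs of miR390 in ld-1 and of miR160 between the mutants turned. Without the 5 most abundant rows the ld-1 sums were -0.22, 0.15 and -0.023, and miR167 in ld-2 was -0.52. miR167 in ld-2 was -0.50 with DESeq2 size factors. It was -0.37 over wild type and -0.64 over ld-1 with TMM without miR2118, and -0.31 and -0.56 with TMM over rows of at least 30 reads, under which miR160 and miR390 were -0.24 and -0.37 in ld-2 over ld-1. Under scaling to all miRNA reads the miR393 sum was -0.70 in ld-1 and 0.66 in ld-2 over wild type. In ld-2 over ld-1 it was 1.37, past 2-fold. With target-pairing arms alone miR393 was -0.16 in ld-2 over wild type and 0.060 over ld-1, and its arm, from 10 to 17 reads a library, limits what can be said. Family pairs with miR393 then became -0.30 (miR160), -0.26 (miR167) and -0.22 (miR390) in ld-2 over wild type, and -0.43, -0.76 and -0.55 over ld-1. Within the dominant row's arm, the dominant miR390 and miR393 rows took 100% of the reads.

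The counts of rows listed over the whole table moved with the read minimum. In ld-1 over wild type 7 higher and 3 lower became 14 and 6 with no minimum and 3 and 1 at a minimum of 100 reads; lower ones were 7 at 1.5-fold, and both scaling to all miRNA reads and leaving out the 5 most abundant rows gave 6 higher and 5 lower. In ld-2 over wild type 22 higher became 34 with no minimum and 8 at 100 reads, and 9 lower became 20 at 1.5-fold; scaling to all miRNA reads gave 23 and 5. In ld-2 over ld-1 21 higher became 32 and 8, and 7 lower became 14 at 1.5-fold; scaling to all miRNA reads gave 23 and 3. With no minimum, ld-1 over wild type had 2 of 15 members listed as higher and 1 as lower, beside 5.05% and 2.17% of the 277 rows with reads. The higher ones were the 23-nt miR167c row, with 9 reads against 1, and the opposite arm of miR160f, with 6 against 0. With that 0 set at the floor of 3 counts, the miR160f row was 1.94-fold higher. The lower one was the opposite arm of miR160c, with 3 reads against 15, so these counts rest on few reads. In ld-2 over wild type 1 member was higher and 1 lower, beside 12.3% and 4.69%. At 1.5-fold, 1 of 9 members was higher and 0 were lower in ld-2 over wild type, beside 23.9% and 18.3% of the 109 retained rows. In ld-2 over ld-1 1 was higher and 2 were lower, beside 20.2% and 12.8%. Causes were not tested.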
